A study of Rattus norvegicus with 6 samples.

Results

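Dpp4 (ENSRNOG00000030763) and Mme (ENSRNOG00000009514) are the 2 brush border peptidases described here, taken by identifier from the 23487 genes of the series' count table. Both were among the 13644 genes that passed the filter on low counts. Kidney RNA had been sequenced from male Wistar Han rats, 3 with sub-total nephrectomy (SNx) and 3 labelled as not operated (NoOp). In the SNx rats part of the right kidney was resected and the left kidney was removed later, so the libraries hold RNA of the remnant kidney. Animals were killed when serum creatinine or urinary protein passed a set limit, and the interval after surgery therefore differed between rats. Ages and the day of death of each rat are not given in the labels. By the label and the study's methods the NoOp rats had no surgery, although figure captions of the study call the controls sham. If they had none, loss of kidney tissue and surgery as such cannot be told apart.

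Both proteins are anchored in the apical membrane of the proximal tubule, with the active site facing the urine, where they cut filtered peptides so that the tubule can take up the pieces. Dpp4, dipeptidyl peptidase 4 or CD26, is a serine peptidase that removes dipeptides from the amino end of peptides such as the incretin GLP-1, and it is also found on T cells and endothelium. Mme, neprilysin or CD10, is a zinc metallopeptidase that degrades natriuretic peptides, bradykinin and other small peptides, and in the glomerulus it is known from podocytes. Drugs against each enzyme are in clinical use, DPP4 inhibitors in diabetes and a neprilysin inhibitor in heart failure.

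The bases just before the annotated start of each gene are shown as background. Whether they bear on the level of either transcript was not tested. They are RefSeq sequences of build GRCr8, which is not the build of the count table, and were matched by symbol. The Dpp4 stretch is chr3:67452423-67452672 on the minus strand and the Mme stretch is chr2:149872247-149872496 on the plus strand, each 250 bases written 5′ to 3′. Capitals mark a CCAAT box (CCAAT) in Dpp4 and GC boxes (GGGCGG) in Mme.
Dpp4: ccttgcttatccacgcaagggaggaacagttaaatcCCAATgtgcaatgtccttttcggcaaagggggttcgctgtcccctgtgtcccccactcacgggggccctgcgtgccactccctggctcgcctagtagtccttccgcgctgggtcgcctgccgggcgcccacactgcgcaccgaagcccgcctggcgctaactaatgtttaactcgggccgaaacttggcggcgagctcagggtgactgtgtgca
Mme: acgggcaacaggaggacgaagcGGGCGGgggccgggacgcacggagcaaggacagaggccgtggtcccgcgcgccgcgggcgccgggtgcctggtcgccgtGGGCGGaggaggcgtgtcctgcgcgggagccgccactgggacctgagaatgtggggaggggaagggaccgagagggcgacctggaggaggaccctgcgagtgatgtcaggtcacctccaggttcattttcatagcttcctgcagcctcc

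Both stretches were rich in G and C. The share of G and C was 62.4% for Dpp4 and 70.4% for Mme, against a median of 51.2% over 33469 RefSeq rat promoters of the same length. CG dinucleotides numbered 19 and 25, where the median promoter held 5. On both strands the search covered GTTAAT, a half-site of the hepatocyte nuclear factor HNF1, and the GC box GGGCGG, the CCAAT box, the TATA box TATAAA and the E-box CACGTG. Dpp4 had 1 CCAAT box, from 214 to 210 bases before the start, and 0 of the other motifs. Mme had 2 GC boxes, beginning 228 and 149 bases before the start, and 0 of the other motifs. Both kinds of box were common, since 34.0% of all promoters held a CCAAT box and 30.5% a GC box. The half-site was present in 6.45%, the TATA box in 12.9% and the E-box in 5.59%. For Dpp4, 1 RefSeq transcript is listed and its start is the outer end of the gene. For Mme, 5 transcripts are listed and the start shown lies inside the gene, so other starts lie further upstream. Among protein-coding genes Dpp4 lies between Slc4a10 and Gcg, the gene of proglucagon from which GLP-1 is cut. In GRCr8 the Dpp4 span overlaps 1 other locus, a long non-coding RNA, and the Mme span overlaps 2, a pseudogene and a small nucleolar RNA. Whether reads were shared with them in the authors' quantification was not tested.

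Total estimated counts ranged from 11183768 to 13140864 in NoOp and from 9572955 to 10707643 in SNx, so every SNx library was the smaller. Scaling factors from the trimmed mean of M-values (TMM) ran from 0.884 to 0.963 in NoOp and from 0.990 to 1.21 in SNx. Levels are given as CPM, which are counts relative to the TMM-scaled library size. Markers of the tubule segments, glomerulus and leukocytes were not checked, because the deposited tables name genes by identifier only. The study's methods describe RNA integrity that ranged from good to strongly degraded, and the value of each library was not analysed here.

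Dpp4 transcripts were lower in the remnant kidney in all 3 SNx rats, at about 30% of the NoOp level. Replicates 1, 2 and 3 of the NoOp group had 10694, 10804 and 9789 estimated counts. Those of the SNx group had 2589, 2845 and 3824. The groups did not overlap, and the NoOp libraries lay close together. On the CPM scale Dpp4 stood at 1040, 855 and 940 in the NoOp libraries and at 249, 220 and 404 in the SNx libraries. The group means were 945 ± 92.6 and 291 ± 98.9 CPM (SD, n = 3 each). The lowest NoOp library still held 2.12 times the CPM of the highest SNx library. The log2 fold change was -1.74 (SE 0.25), which corresponds to 29.99% of the NoOp level, with a 95% interval from 20.02% to 44.9%. Its adjusted p was 0.00348 (limma, Benjamini-Hochberg over all genes tested).

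Mme transcripts were lower in SNx as well, at about 36% of the NoOp level, but the libraries within each group differed more. In the same order the NoOp rats had 4207, 3070 and 2955 estimated counts, and the SNx rats 791, 1134 and 1915. The corresponding CPM values of the NoOp rats were 409, 243 and 284. Those of the SNx rats were 76.2, 87.6 and 202. The groups did not overlap, although SNx replicate 3 came near the NoOp range. The lowest NoOp library held only 1.20 times the CPM of SNx replicate 3. The mean level was 312 ± 86.6 CPM without operation and 122 ± 69.8 CPM after SNx (SD, n = 3 each). The log2 fold change was -1.46 (SE 0.39), or 36.4% of the NoOp level, with a 95% interval from 19.4% to 68.4%. The adjusted p was 0.0239 (limma, Benjamini-Hochberg over all genes tested).

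**Figure D1:**
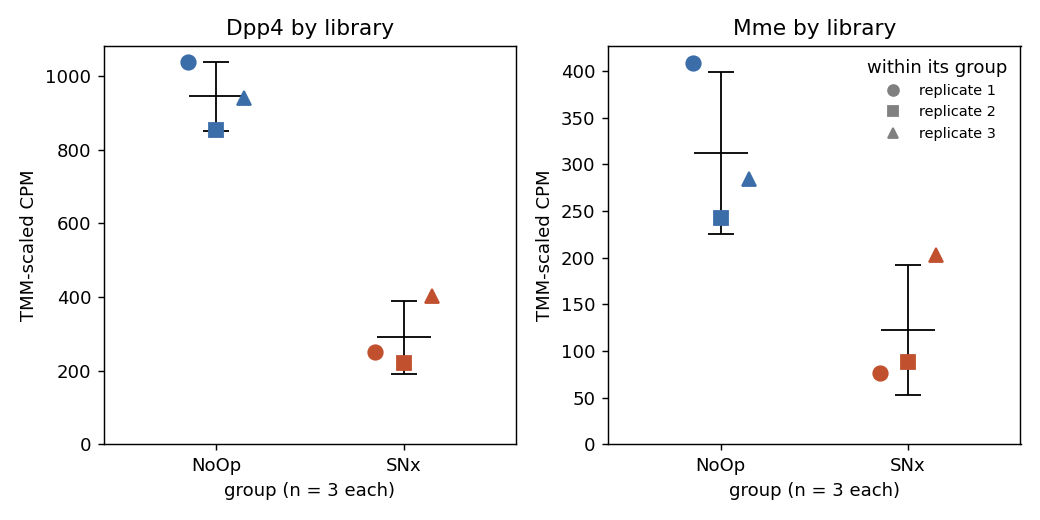
TMM-scaled CPM of Dpp4 and Mme in each library, by group, with points shaped by replicate and bars for the mean and SD (n = 3 each). All SNx points lie below all NoOp points in both panels, and SNx replicate 3, at 404 CPM for Dpp4 and 202 CPM for Mme, is the highest of its group.

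Both genes were thus called lower, where 35.8% of all tested genes were called in either direction and 16.6% were called lower. Among the 2948 genes whose mean log2 CPM reached 6, 29.5% were called lower. As for both peptidases, every SNx library lay below every NoOp library for 24.5% of all tested genes. With 2 genes these shares give the setting and say nothing particular about brush border peptidases. For each gene on its own the exact two-sided permutation p over libraries was 0.1, the smallest that 3 libraries against 3 can give. In whole tissue, fewer proximal tubule cells and less transcript per cell cannot be told apart.

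The fall of Dpp4 was larger than the median of the 2271 genes called lower, which was -0.93 on the log2 scale. Of those genes, 21.3% fell further than Dpp4 and 29.0% further than Mme. The standard error of Dpp4, 0.25, and that of Mme, 0.39, were above the median of 0.19 for genes called lower. By p-value Dpp4 ranked 613 and Mme 3671 among all tested genes.

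**Figure D2:**
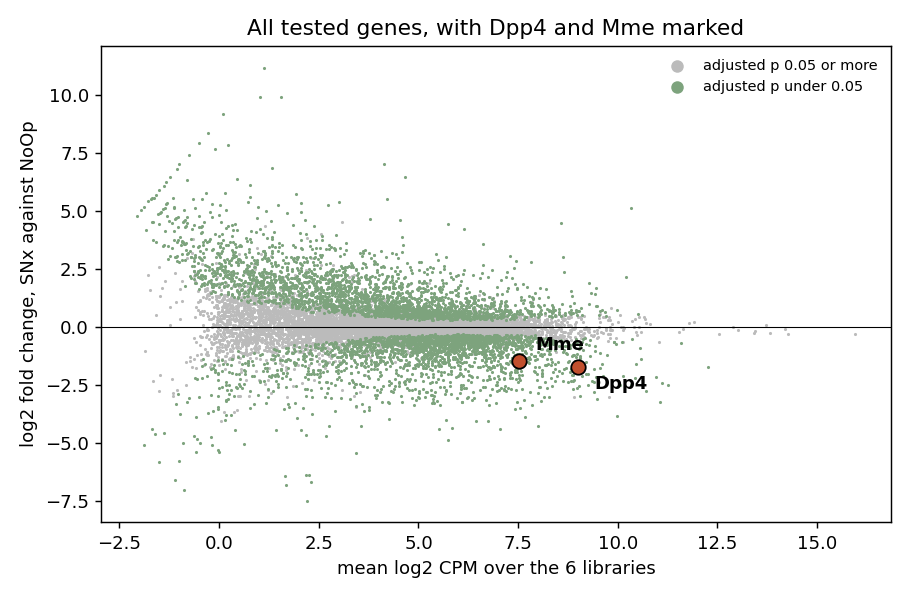
Log2 fold change of SNx against NoOp (vertical axis) against mean log2 CPM over the 6 libraries (horizontal axis) for all 13644 tested genes, with green points for an adjusted p under 0.05 (limma) and grey points for the rest. Dpp4 at -1.74 and Mme at -1.46 lie among the abundant genes that were called lower.

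Counting error was smaller than the spread between libraries. It came to between 0.96% and 1.97% of the count for Dpp4 and between 1.54% and 3.56% for Mme, from the square root of each count taken as unscaled. The spread between libraries, as a coefficient of variation of the CPM values, was 9.80% in NoOp and 34.0% in SNx for Dpp4, and 27.8% in NoOp and 57.2% in SNx for Mme. In it, differences between animals, in RNA quality and in library preparation cannot be told apart. The difference in spread between the groups was not tested.

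SNx replicate 3 kept more of both transcripts than the other SNx animals. Relative to the NoOp mean CPM, Dpp4 stood at 26.4%, 23.3% and 42.8% in the SNx rats in the order of their replicate numbers. Mme stood at 24.4%, 28.1% and 64.9%. In SNx replicates 1 and 2 both transcripts thus lay at similar shares of their NoOp means, and in SNx replicate 3 they lay apart. On the log2 scale SNx replicate 3 had covered 60.8% of the distance from the NoOp mean to the mean of the other SNx libraries for Dpp4, and 31.1% for Mme. Over 2545 of the tested genes that were called lower without that library (limma, adjusted p under 0.05), the median distance covered was 58.8% and the quartiles were 43.6% and 74.5%. Dpp4 lay near that median, while 87.0% of those genes had covered more of the distance than Mme. The genes were called lower from the same libraries that set the distance, and they include both peptidases. That choice favours a long distance, so SNx replicate 3 would tend to fall short of it in any case. These positions are descriptions of 1 animal, which is also the only SNx library in the upper range of library numbers described below.

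Leaving out single libraries changed the call of Mme and not that of Dpp4. Without SNx replicate 3 the log2 fold change was -2.02 for Dpp4 (limma adjusted p 0.000217) and -1.91 for Mme (limma adjusted p 0.000619). Dropping NoOp replicate 1 raised the limma adjusted p of Mme to 0.0777, and dropping NoOp replicate 3 raised it to 0.0681. Leaving out SNx replicate 1 gave 0.0662 and leaving out SNx replicate 2 gave 0.0677. The value remained under 0.05, at 0.0468, when NoOp replicate 2 was dropped. For Dpp4 the highest value with 1 library left out was 0.0206.

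**Figure D3:**
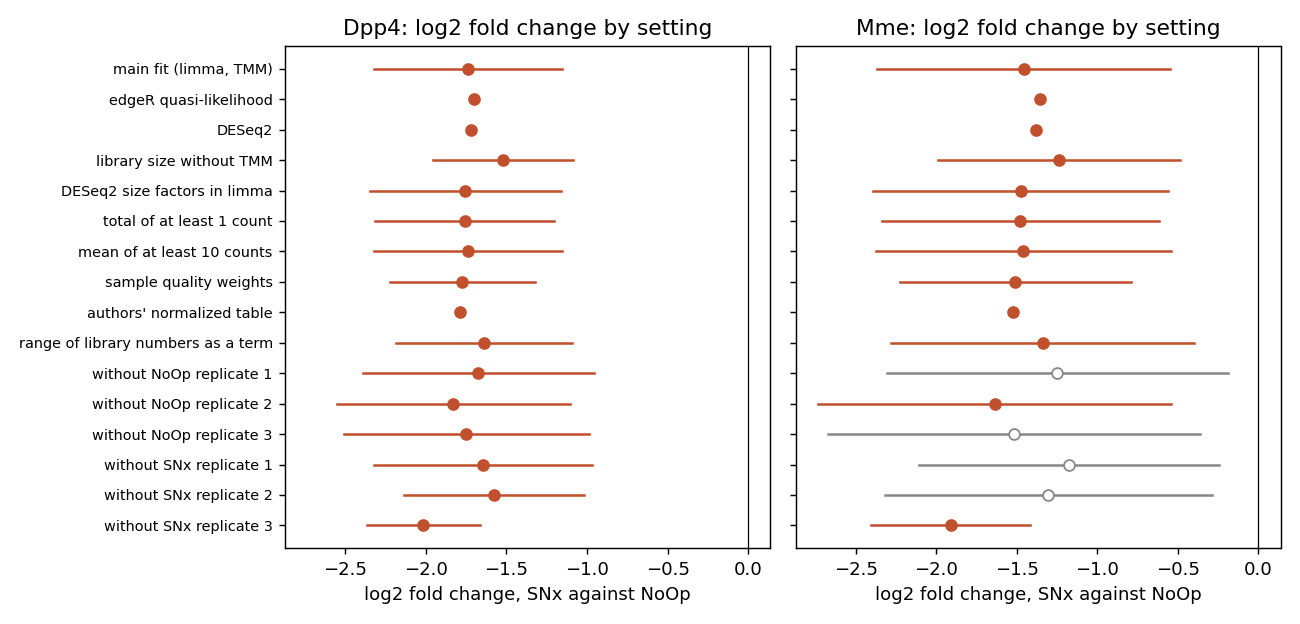
Log2 fold change of SNx against NoOp for Dpp4 and Mme under each analysis setting, with 95% intervals for the fits that give them, filled red points for an adjusted p under 0.05 and open grey points for the others. All 16 values of each gene are below 0, and the 4 open points are all of Mme with 1 library left out.

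By the numbers in their titles the libraries form a lower range, with NoOp replicate 1 and SNx replicates 1 and 2, and an upper range, with NoOp replicates 2 and 3 and SNx replicate 3. What the numbers stand for is not given. Within the lower range the difference of mean log2 CPM was -2.15 for Dpp4 and -2.32 for Mme. Within the upper range it was -1.15 for Dpp4 and -0.38 for Mme. Each range holds 1 library of one of the groups, so no test was made within it. Both genes were lower in SNx in both ranges, and for Mme the difference in the upper range was the smallest in size of the 4 values. With the range as a term in the model the log2 fold changes were -1.64 for Dpp4 (limma adjusted p 0.00481) and -1.34 for Mme (limma adjusted p 0.0411).

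Whether one peptidase fell more than the other was examined through the ratio of their counts within a library, which does not depend on how libraries are scaled. Per 100 Dpp4 counts, replicates 1, 2 and 3 of the NoOp group held 39.3, 28.4 and 30.2 Mme counts. Those of the SNx group held 30.6, 39.9 and 50.1. The groups overlapped. The log2 ratio averaged -1.63 ± 0.25 without operation and -1.34 ± 0.36 after SNx (SD, n = 3 each), a difference of 0.28 for which the exact two-sided permutation test gave p = 0.2. Over all pairs of 1 SNx and 1 NoOp library the difference ran from -0.36 to 0.82. The smallest p that 3 libraries against 3 allow is 0.1, so this test could not pass 0.05 in either case, and whether the balance of Mme and Dpp4 changed is not settled. Within the lower range of library numbers the ratio differed by -0.17 and within the upper range by 0.77.

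**Figure D4:**
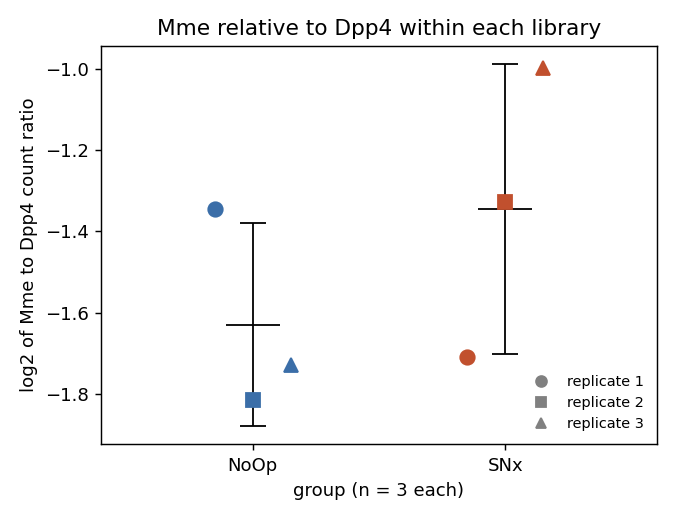
Log2 ratio of Mme to Dpp4 counts within each library, by group, with points shaped by replicate and bars for the mean and SD (n = 3 each). The groups overlap, and SNx replicate 3 has the highest ratio of the 6 libraries, at -0.998.

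The authors' normalized table gave the same directions. There Dpp4 had log2 values of 9.90 ± 0.16 for the NoOp rats and 8.11 ± 0.48 for the SNx rats (SD, n = 3 each), a difference of -1.79 (limma with a mean-variance trend, adjusted p 0.00234). Mme had 8.28 ± 0.41 and 6.76 ± 0.75 (SD, n = 3 each), a difference of -1.52 (limma with a mean-variance trend, adjusted p 0.0163). Scaling by library size alone shifted the median log2 fold change over all genes to 0.24, from 0.01 with TMM. Under it Dpp4 was at -1.52 and Mme at -1.24, or -1.76 and -1.48 relative to that median.

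The likeness of other genes to each peptidase was measured over the 6 libraries, as the root mean square difference between log2 CPM profiles that were each centred on their own mean. Among 10036 other genes whose mean log2 CPM reached 3, ENSRNOG00000006916 was nearest to Dpp4, at 0.05. The NoOp rats had 2336, 2318 and 1919 counts of it, and the SNx rats 548, 616 and 821. The log2 fold change of this gene was -1.72 (SE 0.24). As it was chosen for its likeness to Dpp4 over the same libraries, a similar fall was fixed by that choice. The gene nearest to Mme, ENSRNOG00000014090, lay further away, at 0.21. The NoOp rats had 7319, 7227 and 5445 counts of it, and the SNx rats 1220, 2438 and 3247. The peptidases themselves were 0.29 apart, which placed Mme 225th in likeness to Dpp4 and Dpp4 33rd in likeness to Mme, where the median gene lay 0.91 from Dpp4 and 0.88 from Mme. Both peptidases fell in these same libraries, so a distance below that of the median gene follows from their falls. These ranks are therefore no separate evidence that the 2 genes vary together. The deposited tables do not pair identifiers with symbols, so the neighbours are not named.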

How the data were processed

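Ribosomal RNA-depleted, strand-specific libraries of 6 kidneys were sequenced paired-end, although polyA RNA is the molecule named in the labels. The authors quantified transcripts against the Rn6 transcriptome with Salmon, summarised them per gene with tximport and applied voom in limma, per the labels and the study's methods. Versions and the annotation release are not given in the sources used here. The authors deposited estimated counts, as whole numbers, for 23487 genes and a normalized table of log2 CPM values for 12135 genes. Per the study's methods the summary was to length-scaled values, and it was not settled if the count table is length-scaled. Square-root counting errors and count ratios treat them as unscaled. All 12 single-library files held the values of their column in these tables.

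Genes were filtered with filterByExpr of edgeR 4.0.16 (minimum count 10, minimum total 15), scaled with TMM and fitted for group alone with voom and limma 3.58.1 (R 4.3.3). P-values are two-sided. Those of the fits were adjusted after Benjamini and Hochberg across the genes tested in that fit, 13644 with all libraries, and called under 0.05, while permutation p-values were not adjusted. Log2 CPM used a prior count of 2, and count ratios an offset of 0.5. Fits were also run on simulated counts in which far fewer genes changed than were called here. That check does not cover such a broad change, and no result rests on it. Alternatives were the edgeR quasi-likelihood test, DESeq2 1.42.0, other scalings and filters, sample weights, the normalized table, the range of library numbers, and leaving out each library. Values within each range for the single genes were added after seeing the data. Permutation tests were exact (scipy 1.17.1). Groups came from the treatment label and replicates were numbered in order of deposition. The labels name no animals or replicate numbers, so p-values measure the spread between these 6 libraries. Intervals of counts cover counting error only.

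The members and gene lists were chosen with earlier results of these data known. The study had reported Dpp4 as lower in SNx kidney, in RNA and protein, with these libraries among its data. The fall of Dpp4 described here is therefore not an independent result. The symbols of the members came with the choice of the identifiers, since neither the deposited tables nor the RefSeq table pair identifiers with symbols: 0 of 23487 matched. A shortened supplementary table of the study pairs some identifiers, in order of the study's own adjusted p-values, and was not used for names. For this reason 14 gene lists of tubule, glomerular, leukocyte and peptidase genes were not analysed, nor were the comparisons with proximal tubule and podocyte genes. The rule for naming genes covered both peptidases and the genes nearest to them in profile. The clause asking for a symbol was dropped, and the text is limited to 1 nearest gene each.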

Additional observations from a re-analysis of the deposited data

How the results depend on the processing

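Dpp4 was lower in SNx with an adjusted p under 0.05 in all 15 other fits, including every fit with 1 library left out, where the log2 fold change ran from -2.02 to -1.58. Mme was lower in the same 15 fits, from -1.91 to -1.18 with 1 library left out, and no longer passed the threshold without NoOp replicate 1, NoOp replicate 3, SNx replicate 1 or SNx replicate 2. These fits have fewer samples. Within the ranges of library numbers, where no test was made, Dpp4 was at -2.15 in the lower and -1.15 in the upper range, and Mme at -2.32 and -0.38. The difference in the log2 ratio of Mme to Dpp4, 0.28 with all libraries, was reversed to -0.17 in the lower range and was 0.77 in the upper range. It ran from 0.11 to 0.47 with 1 library left out, and its exact permutation p was 0.2 to 0.4 over the alternatives tested, none of which could pass the threshold, since 3 libraries against 2 give at least 0.2. The cause was not tested. The number of genes called was 4891 with all libraries, 4399 to 5760 in the other fits on all libraries, and 2857 to 5764 with 1 left out, the lowest without NoOp replicate 3 and 3124 without NoOp replicate 2. No paired analysis was made, since the NoOp and SNx groups were separate rats. The planned counts over brush border hydrolases and the levels relative to proximal tubule and podocyte genes were not run, since no identifier matched a symbol. Counting error was at most 3.56% of a count for either gene, below the spread between libraries.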

Other observations

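The 2 deposited tables differed slightly for these genes in a way that went with the groups. The authors' normalized log2 value was set against the log2 of the estimated count, and the difference was centred on the median of each library over 9137 genes whose mean count reached 100. For Dpp4 this difference was 0.04, -0.01 and 0.05 for NoOp replicates 1, 2 and 3. For the SNx replicates in the same order it was -0.03, -0.04 and -0.01. For Mme it was 0.06, 0.004 and 0.05 in the NoOp libraries and -0.04, -0.01 and -0.06 in the SNx libraries. All SNx libraries lay below all NoOp libraries for both genes, as they did for 9.17% of the 9137 genes. The mean difference between the groups was -0.05 for Dpp4 and -0.07 for Mme, and the exact permutation p, two-sided, was 0.1 for each, the smallest that 3 libraries against 3 can give. Of all these genes, 3.94% had a more negative value than Dpp4 and 2.58% than Mme. The shift is small beside the falls of -1.74 and -1.46, and its cause was not tested.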
